A study of Mus musculus with 8 samples.

Results

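Polycomb group proteins keep genes silent through 2 kinds of histone-modifying complex, and the 10 genes described here encode subunits of both. They were chosen by name as the rows of the deposited expression table with the symbols *Ezh2*, *Ezh1*, *Eed*, *Suz12*, *Jarid2* and *Mtf2*, which belong to Polycomb repressive complex 2 (PRC2), and *Rnf2*, *Ring1*, *Bmi1* and *Cbx7*, which belong to Polycomb repressive complex 1 (PRC1). All 10 were found among the 18990 genes of the table, and all 10 passed the filter that left 13866 genes for testing, an average of 1 CPM or more (reads scaled to the size of each library). From day 3 to day 6 of reprogramming, the chromobox gene *Cbx7* rose and the methyltransferase gene *Ezh2* fell under both siRNA pools. At day 6, the libraries labelled siOct4 had less *Jarid2* and more *Eed* than those labelled siNcor1. The *Ezh2* fall in siOct4 and the *Eed* difference did not hold past the threshold in every fit that left out a single library.

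PRC2 places methyl groups on lysine 27 of histone H3, a mark of silenced developmental genes, and PRC1 places ubiquitin on histone H2A and can compact chromatin. EED reads the methyl mark that PRC2 writes and CBX proteins of canonical PRC1 bind the same mark, so the complexes often occupy the same promoters. In fibroblasts Polycomb complexes are best known for silencing the *Ink4a/Arf* locus, which otherwise arrests the cell cycle, and in pluripotent cells for holding lineage regulators off.

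The cells were mouse embryonic fibroblasts (MEFs) of the BL6 strain (C57/BL6 in the study's methods), wild type in genotype and labelled as reprogrammed at passage 2, although the methods give an earlier passage at seeding, infected at a multiplicity of infection of 1 with a lentivirus that expresses *Oct4*, *Sox2*, *Klf4* and *c-Myc* (OSKM) from a tetracycline-responsive promoter and with a second lentivirus that carries its transactivator, rtTA. All groups received doxycycline to switch the cassette on, in a medium that also held LIF, ascorbic acid, Chiron and an Alk5 inhibitor. The 4 groups were siNcor1 at day 3, siOct4 at day 3, siNcor1 at day 6 and siOct4 at day 6, where siNcor1 and siOct4 are pools of siRNAs at 40 nM against *Ncor1*, a nuclear corepressor, or *Oct4* (*Pou5f1*). Each group had 2 biological replicates, which gave 8 libraries of ribosome-depleted total RNA. The non-targeting control was not analysed here, so each value is set against the other knockdown or the other day, never against unperturbed reprogramming. Each library is a bulk culture, in which cells that advanced and cells that did not were measured together.

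The targeted genes gave an incomplete check of the labels. *Ncor1* was 7.08 and 7.20 log2-cpm in the siNcor1 replicates at day 3 and 7.82 and 7.94 in the libraries labelled siOct4, a difference of 0.74 ± 0.12 (SE, adjusted p = 0.0139, limma), whereas at day 6 it differed by −0.04 (adjusted p = 0.815, limma). The siOct4 label did not go with less *Pou5f1*, which differed by −0.08 at day 3 (adjusted p = 0.941, limma) and at day 6 the siOct4 label went with a level 1.78 ± 0.16 higher (SE, adjusted p = 0.000109, limma). Cassette-derived and endogenous *Pou5f1* transcripts share these counts. Every direction given for siOct4 below is therefore that of the libraries labelled siOct4, whatever the state of *Pou5f1* in them. The libraries held 7735742 to 16445192 reads on genes. Reads assigned to the gene *Gm26917* made up 15.5% to 16.6% of them at day 3 and 20.3% to 29.1% at day 6. What RNA these reads came from was not tested. In the 2 libraries labelled siOct4 at day 6, the median gap between replicates over all tested genes was 0.26, against 0.15 to 0.16 in the other groups. Over the 10 members it was 0.34 in those libraries and 0.12 to 0.14 elsewhere.

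Summed levels of cell type markers also differed between the groups. All 8 fibroblast markers (such as *Col1a1* and *Pdgfra*) had reads in every library, and their summed level was 8257 to 8431 CPM in siNcor1 at day 3, 10995 to 12493 in siOct4 at day 3, 6041 to 6223 in siNcor1 at day 6 and 3368 to 3453 in siOct4 at day 6. The sum hides members that went both ways in siNcor1, where *Thy1*, *Pdgfra* and *Col3a1* rose from day 3 to day 6 and *Col1a1* and *Col1a2* fell. In the siOct4 libraries 6 of the 8 fell and 0 rose between the days, beside 30.5% of all tested genes lower and 22.2% higher. The 6 epithelial markers (such as *Cdh1* and *Epcam*) summed to 87.4 to 89.4, 36.2 to 44.5, 675 to 705 and 288 to 324 CPM in the same order. The 14 proliferation genes (such as *Mki67* and *Pcna*) summed to 1989 to 2428, 2004 to 2079, 1344 to 1465 and 1753 to 1934 CPM. Some listed markers of endothelial cells (*Pecam1*, *Cdh5*, *Kdr*), of macrophages (*Adgre1*) and of keratinocytes (*Krt5*, *Trp63*) never passed 48 reads in a library. Of the others in the table, *Csf1r* had 8 to 33 reads in a library and *Krt14* 1 to 44, also never above 48. *Tek* had 151 to 745, *Cd68* 31 to 103 and *Lyz2* 19 to 52. *Krt14* passed the threshold from day 3 to day 6, rising by 3.92 in siNcor1 and 2.19 in siOct4. *Cdh5* and *Krt5* were at 0 in 2 libraries each and *Adgre1* in 1. Their summed lists reached at most 44.3 CPM for the 4 endothelial markers, nearly all of it *Tek*, 12.8 CPM for the macrophage and leukocyte markers in the table, and 8.91 CPM for the 3 keratinocyte markers. What part these shifts had in the Polycomb values was not tested. In bulk RNA, fewer cells of a type and less RNA per cell cannot be told apart.

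The upstream sequences of the members were read from RefSeq promoter windows (GRCm38.p6, 250 bases before to 50 bases after each gene's start). All 10 members matched the table, with 12 windows. The windows were searched on both strands for CACGTG, the E-box bound by MYC and its relatives, and for TTCCCGCC, TTTCCCGC and TTTGGCGC, forms of the motif of the cell-cycle factors of the E2F family. The first 2 E2F forms can overlap each other. An E2F form was found for 2 of the 10 members and an E-box for 1, and the stretch around each match is printed 5′ to 3′ on the gene's own strand, with the match in capitals.
Ezh2: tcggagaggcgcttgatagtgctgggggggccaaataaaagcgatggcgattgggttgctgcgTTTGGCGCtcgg
Suz12: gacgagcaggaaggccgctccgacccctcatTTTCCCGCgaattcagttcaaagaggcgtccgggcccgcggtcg
Bmi1: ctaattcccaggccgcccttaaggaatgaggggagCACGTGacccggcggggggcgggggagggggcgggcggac
The *Ezh2* stretch is chr6:47595016-47595090 on the minus strand, with the E2F form TTTGGCGC at positions 4 to 11 counted from 1 at the RefSeq start, which for *Ezh2* lies inside the GENCODE span given below and not at its edge. The *Suz12* stretch is chr11:79992856-79992930 on the plus strand, with TTTCCCGC at −219 to −212. The *Bmi1* stretch is chr2:18676768-18676842 on the plus strand, with the E-box at −215 to −210. Over 32851 promoter windows of the same length, 0.514% held TTTGGCGC, 1.07% TTTCCCGC, 2.19% TTCCCGCC, 3.21% any of the 3 E2F forms and 7.15% the E-box. A match describes the letters only, and the other 7 members had none of these letters in these windows.

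All 10 are protein-coding genes of GRCm38 (mm10, GENCODE M21), and only *Ezh1* and *Suz12* share a chromosome. *Ezh2* (ENSMUSG00000029687) is at chr6:47530139-47595341 on the minus strand, *Ezh1* (ENSMUSG00000006920) at chr11:101191115-101226463 on the minus strand, *Eed* (ENSMUSG00000030619) at chr7:89954654-89980983 on the minus strand and *Suz12* (ENSMUSG00000017548) at chr11:79993106-80034123 on the plus strand. *Jarid2* (ENSMUSG00000038518) is at chr13:44729474-44921643 and *Mtf2* (ENSMUSG00000029267) at chr5:108065674-108109004, both on the plus strand. Of the PRC1 genes, *Rnf2* (ENSMUSG00000026484) is at chr1:151458004-151500955 and *Ring1* (ENSMUSG00000024325) at chr17:34020792-34024680, both on the minus strand, *Bmi1* (ENSMUSG00000026739) at chr2:18677018-18686629 on the plus strand and *Cbx7* (ENSMUSG00000053411) at chr15:79915807-79971119 on the minus strand. The strand setting used in counting is not given in the sources used here, so reads of a member and of a gene on the other strand may not be separable where they overlap. *Cbx7* overlaps *Apobec3* on the other strand by 100 bases, *Rnf2* overlaps *Trmt1l* by 158 bases and *Mtf2* overlaps *Tmed5* by 2639 bases. *Apobec3* fell by 0.60 from day 3 to day 6 in siNcor1 (adjusted p = 0.00428, limma) and differed by 0.08 between the days in siOct4 (adjusted p = 0.645, limma), and *Trmt1l* fell by 0.41 and by 0.45 under the 2 pools (adjusted p = 0.0453 and 0.0207, limma). *Cbx7* and *Rnf2* were higher at day 6 than at day 3 under each pool, with no overlap between the days. The difference of *Rnf2* in siNcor1, 0.34, did not pass the threshold (adjusted p = 0.113, limma). Libraries of the 2 days did not overlap for 73.1% of all tested genes in siNcor1 and 74.8% in siOct4. What part reads of the overlapping genes had in the members' values was not tested. *Apobec3* was also 0.40 higher with the siOct4 label at day 6 (adjusted p = 0.0345, limma) and had an interaction of 0.67 (adjusted p = 0.0240, limma), the same sign as the uncalled interaction of *Cbx7*. *Tmed5* averaged 40.6 CPM against 24.2 for *Mtf2* and was 0.39 higher with the siOct4 label at day 6 (adjusted p = 0.0451, limma), and its day differences were −0.19 in siNcor1 and 0.19 in siOct4 (adjusted p = 0.314 and 0.256, limma). The remaining overlapping genes in the table had a mean below 2 CPM.

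Compared per kilobase of exon, so that genes of different length can be set side by side, *Suz12* was the most abundant member at day 3 and *Cbx7* the least abundant in every group. In siNcor1 at day 3 the mean level per kilobase on the log2-cpm scale was 4.14 for *Suz12*, 3.60 for *Rnf2*, 3.52 for *Bmi1*, 3.46 for *Eed*, 3.23 for *Ezh2*, 2.04 for *Mtf2*, 2.03 for *Jarid2*, 1.96 for *Ezh1*, 1.70 for *Ring1* and 0.45 for *Cbx7*. The libraries of *Rnf2* and *Bmi1* overlapped in that order, and so did those of *Mtf2*, *Jarid2* and *Ezh1*. The libraries labelled siOct4 at day 3 had *Suz12* at 3.81 and then *Eed* at 3.44, *Rnf2* at 3.35 and *Bmi1* at 3.28, of which the last 3 overlapped from one to the next. They were followed by *Ezh2* at 3.11, *Ezh1* at 1.96, *Mtf2* at 1.90, *Jarid2* at 1.74, *Ring1* at 1.61 and *Cbx7* at −0.14, with *Ezh1* and *Mtf2* overlapping. By day 6 in siNcor1 the E3 ligase gene *Rnf2* stood first at 3.94, before *Suz12* at 3.62, *Eed* at 3.44, *Bmi1* at 3.15, *Jarid2* at 2.43, *Ezh2* at 2.30, *Mtf2* at 2.16, *Ezh1* at 1.83, *Ring1* at 1.82 and *Cbx7* at 1.53, with only *Ezh1* and *Ring1* overlapping. In the libraries labelled siOct4 at day 6 the first 4 were *Eed* at 3.97, *Rnf2* at 3.77, *Suz12* at 3.53 and *Bmi1* at 3.39, and each overlapped its neighbour. There *Ezh2* followed at 2.64, *Mtf2* at 2.23, *Ring1* at 1.91, *Jarid2* at 1.79, *Ezh1* at 1.50 and *Cbx7* at 1.44, with overlap between *Ezh2* and *Mtf2*, *Ring1* and *Jarid2*, and the last pair.

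**Figure D1:**
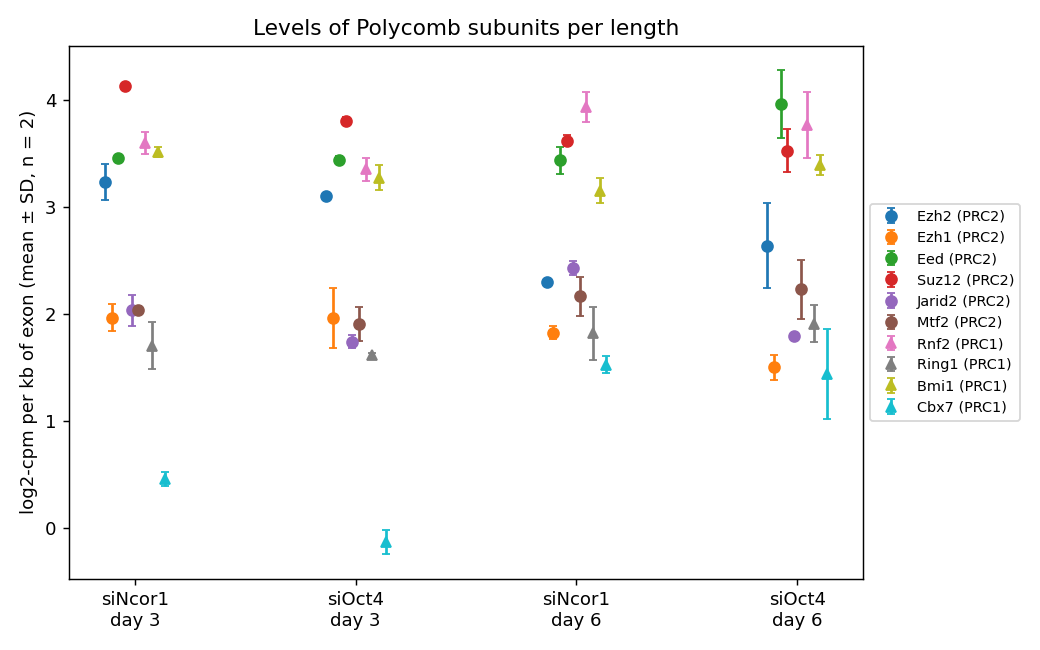
Level of each of the 10 subunits per kilobase of exon (log2-cpm per kb) in the 4 groups, as mean and SD of 2 libraries, with circles for PRC2 and triangles for PRC1. *Cbx7* is the lowest member in all 4 groups, with group means from −0.14 to 1.53, and *Suz12* is the highest at day 3, at 4.14 and 3.81.

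Among the catalytic subunits, *Ezh2* encodes the main H3K27 methyltransferase of dividing cells, and it showed the largest fall of any member. Its log2-cpm values were 5.85 and 6.09 in siNcor1 at day 3, 5.87 and 5.82 in siOct4 at day 3, 5.05 and 5.04 in siNcor1 at day 6, and 5.10 and 5.66 in siOct4 at day 6. All 4 day-6 libraries were below all 4 day-3 libraries. The fall from day 3 to day 6 was −0.93 ± 0.17 (SE, adjusted p = 0.00175, limma) in siNcor1 and −0.47 ± 0.17 (SE, adjusted p = 0.0366, limma) in the libraries labelled siOct4. The second value rests on replicate 1 of siOct4 at day 6: without it the change was −0.19 (adjusted p = 0.292, limma) and without replicate 2 it was −0.75 (adjusted p = 0.000721, limma). It also missed the threshold without replicate 1 or 2 of siOct4 at day 3 (adjusted p = 0.130 and 0.106, limma) or of siNcor1 at day 6 (adjusted p = 0.0522 and 0.0521, limma). With library totals that leave out *Gm26917* the change was −0.33 (adjusted p = 0.108, limma).

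*Ezh1*, the paralogue with weaker methyltransferase activity that is typical of non-dividing cells, had 4.95 and 4.77 in siNcor1 at day 3, 4.66 and 5.06 in siOct4 at day 3, 4.76 and 4.68 in siNcor1 at day 6, and 4.48 and 4.32 in siOct4 at day 6 (log2-cpm). The day-6 libraries labelled siOct4 were the lowest of the 8. *Ezh1* fell by 0.46 ± 0.16 (SE, adjusted p = 0.0296, limma) from day 3 to day 6 in libraries labelled siOct4, and the day difference under siNcor1 was −0.14 (95% interval −0.49 to 0.21). The fall was no longer past the threshold without replicate 2 of siOct4 at day 3 (−0.26, adjusted p = 0.285, limma) or replicate 2 of siOct4 at day 6 (−0.38, adjusted p = 0.0929, limma), nor with library totals without *Gm26917* (−0.32, adjusted p = 0.112, limma).

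*Eed*, whose product binds trimethylated H3K27 and stimulates the enzyme, stayed within a narrow band in 3 groups. Its values were 5.39 and 5.40 in siNcor1 at day 3, 5.35 and 5.41 in siOct4 at day 3 and 5.29 and 5.46 in siNcor1 at day 6, but 5.68 and 6.13 in siOct4 at day 6 (log2-cpm). Both day-6 libraries labelled siOct4 were above the other 6. The rise from day 3 to day 6 in libraries labelled siOct4 was 0.52 ± 0.15 (SE, adjusted p = 0.0125, limma) and the excess over siNcor1 at day 6 was 0.53 ± 0.15 (SE, adjusted p = 0.0221, limma). Replicate 2 of siOct4 at day 6 carried much of both: without it they were 0.30 (adjusted p = 0.0845, limma) and 0.30 (adjusted p = 0.106, limma). The rise also missed the threshold without replicate 1 or 2 of siOct4 at day 3 (adjusted p = 0.0657 and 0.0503, limma), and the excess did so without replicate 1 or 2 of siNcor1 at day 6 (adjusted p = 0.138 and 0.0693, limma). Under siNcor1 the day difference was −0.02 (95% interval −0.35 to 0.31).

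*Suz12*, the scaffold on which the core complex assembles, had the most reads of any member in a library (1493). It was at 6.44 and 6.44 in siNcor1 at day 3, 6.14 and 6.09 in siOct4 at day 3, 5.90 and 5.96 in siNcor1 at day 6, and 5.69 and 5.98 in siOct4 at day 6 (log2-cpm). The siNcor1 day-3 libraries were the highest and did not overlap with any other group. *Suz12* fell by 0.51 ± 0.13 (SE, adjusted p = 0.00847, limma) from day 3 to day 6 in siNcor1. The change in siOct4 was −0.28 (95% interval −0.55 to −0.0037, adjusted p = 0.0822, limma). Under siNcor1 the call was lost without replicate 2 at day 3 (adjusted p = 0.0561, limma), without replicate 1 at day 6 (adjusted p = 0.0722, limma) and with quantile normalisation (−0.33, adjusted p = 0.0548, limma). Under siOct4 the fall passed without replicate 2 at day 6 (−0.42, adjusted p = 0.0118, limma).

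The accessory subunits bring PRC2 to its targets. *Jarid2*, whose product recruits and stimulates the complex, was at 5.21 and 5.42 in siNcor1 at day 3, 4.98 and 5.07 in siOct4 at day 3, 5.76 and 5.66 in siNcor1 at day 6, and 5.07 and 5.08 in siOct4 at day 6 (log2-cpm). Both siNcor1 libraries were above both libraries labelled siOct4 at each day, and the siNcor1 libraries at day 6 were the highest of all. At day 6 *Jarid2* was 0.64 lower (log2 fold change −0.64 ± 0.13, SE, adjusted p = 0.00389, limma) in the libraries labelled siOct4, and this passed the threshold in all 19 other settings, between −0.69 and −0.59. In siNcor1 *Jarid2* rose by 0.40 ± 0.13 (SE, adjusted p = 0.0313, limma) from day 3 to day 6. That rise missed the threshold without replicate 1 or 2 of siNcor1 at day 3 (0.29 and 0.50, adjusted p = 0.194 and 0.0512, limma) and without replicate 1 or 2 at day 6 (0.35 and 0.45, adjusted p = 0.187 and 0.0907, limma). Under siOct4 the day difference was 0.05 (95% interval −0.23 to 0.33).

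*Mtf2* encodes the Polycomb-like protein that directs PRC2 to unmethylated CpG islands. It had 4.53 and 4.57 in siNcor1 at day 3, 4.30 and 4.53 in siOct4 at day 3, 4.55 and 4.81 in siNcor1 at day 6, and 4.55 and 4.94 in siOct4 at day 6 (log2-cpm). The groups overlapped at each day. None of its differences passed the threshold, and the largest was 0.33 (95% interval −0.04 to 0.69) from day 3 to day 6 in libraries labelled siOct4, which passed without replicate 1 of siOct4 at day 6 (0.52, adjusted p = 0.0215, limma) and with library totals without *Gm26917* (0.46, adjusted p = 0.0334, limma).

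Of the E3 ligases of PRC1, *Rnf2* encodes RING1B, which carries most of the H2A ubiquitin ligase activity in embryonic stem cells. *Rnf2* was at 5.57 and 5.72 in siNcor1 at day 3, 5.48 and 5.32 in siOct4 at day 3, 5.89 and 6.08 in siNcor1 at day 6, and 5.60 and 6.04 in siOct4 at day 6 (log2-cpm). The days did not overlap under either pool. *Rnf2* rose by 0.42 ± 0.16 (SE, adjusted p = 0.0392, limma) in libraries labelled siOct4, and the day difference under siNcor1 was 0.34 (95% interval −0.0018 to 0.68, adjusted p = 0.113, limma). The call in libraries labelled siOct4 is weak: of the 8 fits that each leave out 1 library it held only without replicate 1 of siOct4 at day 6 (0.64, adjusted p = 0.00283, limma), and the other 7 gave adjusted p between 0.0521 and 0.256 (limma), with the change lowest, at 0.20, without replicate 2 of siOct4 at day 6. Under siNcor1 the difference passed with quantile normalisation (0.49, adjusted p = 0.0233, limma) and with only the compared groups fitted (0.34, adjusted p = 0.0335, limma). It also passed without replicate 1 or 2 of siOct4 at day 6, with its value unchanged at 0.34.

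*Ring1* encodes RING1A, the paralogous ligase. Its values of 3.56 and 3.24 in siNcor1 at day 3, 3.30 and 3.32 in siOct4 at day 3, 3.69 and 3.34 in siNcor1 at day 6, and 3.73 and 3.48 in siOct4 at day 6 (log2-cpm) overlapped between the pools at each day. No difference of *Ring1* passed the threshold, and the largest was 0.29 (95% interval −0.13 to 0.72) between the days in libraries labelled siOct4.

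*Bmi1*, a Polycomb ring finger subunit of canonical PRC1 and a known repressor of the *Ink4a/Arf* locus, was at 5.48 and 5.54 in siNcor1 at day 3, 5.35 and 5.19 in siOct4 at day 3, 5.06 and 5.23 in siNcor1 at day 6, and 5.32 and 5.45 in siOct4 at day 6 (log2-cpm). The libraries labelled siOct4 were below the siNcor1 libraries at day 3 and above them at day 6. *Bmi1* fell by 0.36 ± 0.13 (SE, adjusted p = 0.0472, limma) from day 3 to day 6 in siNcor1 and differed by 0.11 (95% interval −0.17 to 0.40) in siOct4. The fall was near the threshold, and it was lost without either replicate of siNcor1 at day 3 (adjusted p = 0.110 and 0.197, limma), of siOct4 at day 3 (adjusted p = 0.0649 and 0.0643, limma) or of siNcor1 at day 6 (adjusted p = 0.277 and 0.0861, limma), and with 5 of the 11 other processing settings.

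*Cbx7* encodes a chromodomain subunit of canonical PRC1 that reads trimethylated H3K27 and is the main CBX protein of embryonic stem cells. It was the member that rose the most. Its values were 3.20 and 3.11 in siNcor1 at day 3, 2.64 and 2.48 in siOct4 at day 3, 4.28 and 4.17 in siNcor1 at day 6, and 4.43 and 3.84 in siOct4 at day 6 (log2-cpm), from 43 to 234 reads per library. Every day-6 library was above every day-3 library, and at day 3 the libraries labelled siOct4 were below those of siNcor1. *Cbx7* rose by 1.07 ± 0.20 (SE, adjusted p = 0.00219, limma) in siNcor1 and by 1.58 ± 0.20 (SE, adjusted p = 6.78e-05, limma) in siOct4, and both rises held in all 19 other settings.

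**Figure D2:**
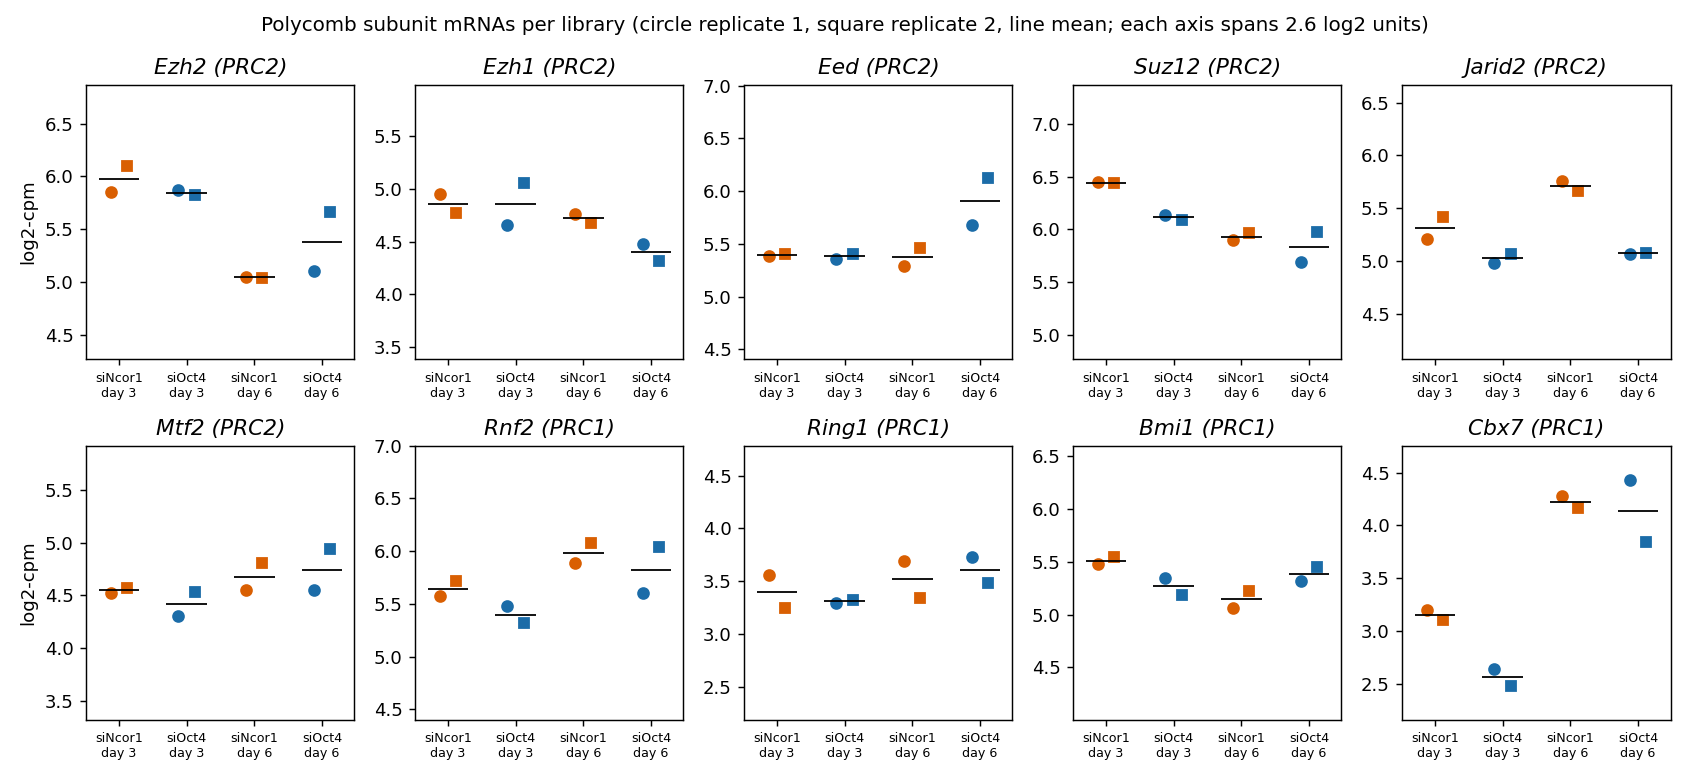
Log2-cpm of each of the 10 subunits in the 8 libraries, by group (points are libraries, lines are group means). *Cbx7* is higher and *Ezh2* is lower in all 4 day-6 libraries than in all 4 day-3 libraries, and *Eed* stands highest in the 2 libraries labelled siOct4 at day 6 (5.68 and 6.13).

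The change from day 3 to day 6 addresses how the subunits moved as reprogramming went on under each pool. In siNcor1, 2 members rose (*Cbx7* and *Jarid2*), 3 fell (*Ezh2*, *Suz12* and *Bmi1*) and 5 did not pass the threshold. Over all tested genes 34.8% passed, 13.8% higher and 20.9% lower at day 6, so 5 of 10 members called, some near the threshold, is to be read against that share. The median difference was 0.05 over the members and −0.07 over all tested genes. Libraries of the 2 days did not overlap for 7 members, 3 higher (*Cbx7*, *Jarid2*, *Rnf2*) and 4 lower (*Ezh2*, *Suz12*, *Bmi1*, *Ezh1*), as for 73.1% of all tested genes (31.4% higher and 41.7% lower).

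With the siOct4 label, 3 members rose (*Cbx7*, *Eed* and *Rnf2*), 2 fell (*Ezh2* and *Ezh1*) and 5 did not pass. The share of all tested genes that passed was 52.7%, with 22.2% higher and 30.5% lower, so the members' count is close to that of the whole table. The median difference was 0.20 over the members and −0.08 over all tested genes. Non-overlapping libraries were seen for 8 members, 5 higher (the 3 called and *Mtf2* and *Ring1*) and 3 lower (the 2 called and *Suz12*), beside 74.8% of all tested genes (32.7% higher and 42.1% lower). The numbers of called members under the 2 pools do not show that the pools differed, which is what the interaction below tests.

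At day 3 the question is whether the pools already differed, and none of the 10 members passed the threshold (limma), with 0 also by voom on the recovered reads and 3 at an unadjusted p under 0.05 (*Cbx7*, *Suz12* and *Jarid2*). Only 1.07% of all tested genes passed, 0.375% higher and 0.692% lower in siOct4. All 10 differences were below 0, from −0.59 for *Cbx7* (95% interval −1.04 to −0.15, adjusted p = 0.258, limma) to −0.0010 for *Ezh1* (95% interval −0.35 to 0.35), although *Ezh1* turned to 0.0097 when each library was centred on its median. *Suz12* differed by −0.33 (95% interval −0.60 to −0.06) and *Jarid2* by −0.29 (95% interval −0.57 to −0.01). The members' median was −0.19 and that of all tested genes −0.02, and 46.0% of all tested genes were above 0. For 5 members (*Cbx7*, *Suz12*, *Jarid2*, *Rnf2* and *Bmi1*) both libraries labelled siOct4 were below both siNcor1 libraries and for none above, beside 43.4% of all tested genes without overlap (20.7% higher and 22.7% lower).

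At day 6 the call set was *Eed*, higher with the siOct4 label, and *Jarid2*, lower with it, and the other 8 members did not pass. Of all tested genes 30.7% passed, 12.1% higher and 18.6% lower, and 2 of 10 members is near that share. *Ezh2* differed by 0.34 (95% interval −0.03 to 0.71, adjusted p = 0.154, limma) and passed without replicate 1 of siOct4 at day 6 (0.62, adjusted p = 0.00710, limma). *Ezh1* differed by −0.32 (95% interval −0.67 to 0.03), *Bmi1* by 0.24 (95% interval −0.04 to 0.52) and *Cbx7* by −0.09 (95% interval −0.53 to 0.36). The median was −0.01 over the members and −0.03 over all tested genes. The libraries did not overlap for 5 members, 3 higher (*Eed*, *Ezh2*, *Bmi1*) and 2 lower (*Jarid2*, *Ezh1*), beside 64.7% of all tested genes (29.9% higher and 34.8% lower).

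The interaction asks whether the difference between the pools changed from day 3 to day 6. No member passed (limma), with 0 by voom and 2 at an unadjusted p under 0.05, against 20.7% of all tested genes (7.77% higher and 12.9% lower). The largest values were 0.54 for *Eed* (95% interval 0.07 to 1.01, adjusted p = 0.0949, limma), 0.50 for *Cbx7* (95% interval −0.13 to 1.13, adjusted p = 0.236, limma), 0.48 for *Bmi1* (95% interval 0.08 to 0.88, adjusted p = 0.0854, limma) and 0.47 for *Ezh2* (95% interval −0.06 to 0.99, adjusted p = 0.189, limma). *Jarid2* had −0.35 (95% interval −0.74 to 0.05). Without replicate 1 of siOct4 at day 6, *Eed* (0.77, adjusted p = 0.00856, limma), *Ezh2* (0.75, adjusted p = 0.0111, limma) and *Bmi1* (0.54, adjusted p = 0.0477, limma) passed. Without replicate 2 of that group *Cbx7* passed (0.80, adjusted p = 0.0323, limma). The comparisons share libraries, so their values are not independent of one another.

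**Figure D3:**
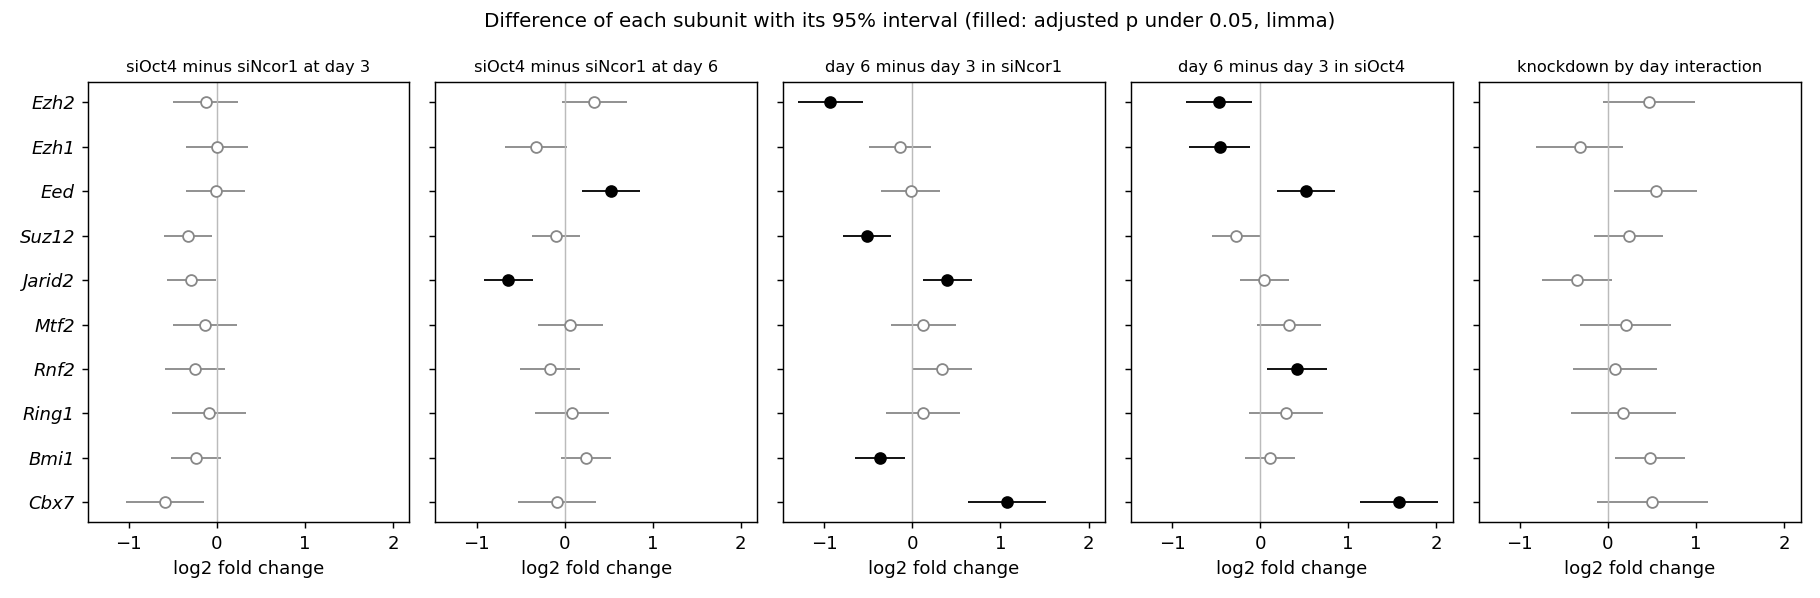
Log2 fold change of each subunit in the 5 comparisons, with its 95% interval (limma). Filled points passed an adjusted p of 0.05: 0 of 10 at day 3 and in the interaction, 2 at day 6, and 5 in each change from day 3 to day 6.

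Several subunits take alternative places in the same complex, so their ratio within a library was followed, per kilobase and without a test. The *Ezh2* to *Ezh1* ratio was 1.06 and 1.48 on the log2 scale in siNcor1 at day 3, 1.36 and 0.92 in siOct4 at day 3, 0.44 and 0.52 in siNcor1 at day 6, and 0.77 and 1.50 in siOct4 at day 6. Its group means corresponded to 2.41, 2.21, 1.39 and 2.20 reads per kilobase of *Ezh2* for each of *Ezh1*. The 2 siNcor1 libraries at day 6 were the lowest of the 8. The *Cbx7* to *Cbx2* ratio, where *Cbx2* encodes the CBX protein with chromatin-compacting activity, was −1.58 and −1.88, −2.36 and −2.65, −0.31 and −0.22, and −1.12 and −1.16 in the same order. It was below 0 in all 8 libraries and lower in siOct4 than in siNcor1 at each day, with no overlap between any 2 groups. *Rnf2* stood above *Ring1* in every library, by 1.53 to 2.39, and the groups overlapped. The ratio of *Bmi1* to *Pcgf2*, its close paralogue, was between −0.26 and 0.58, and that of *Mtf2* to *Jarid2* between −0.44 and 0.63, lowest in siNcor1 at day 6 and highest in siOct4 at day 6.

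**Figure D4:**
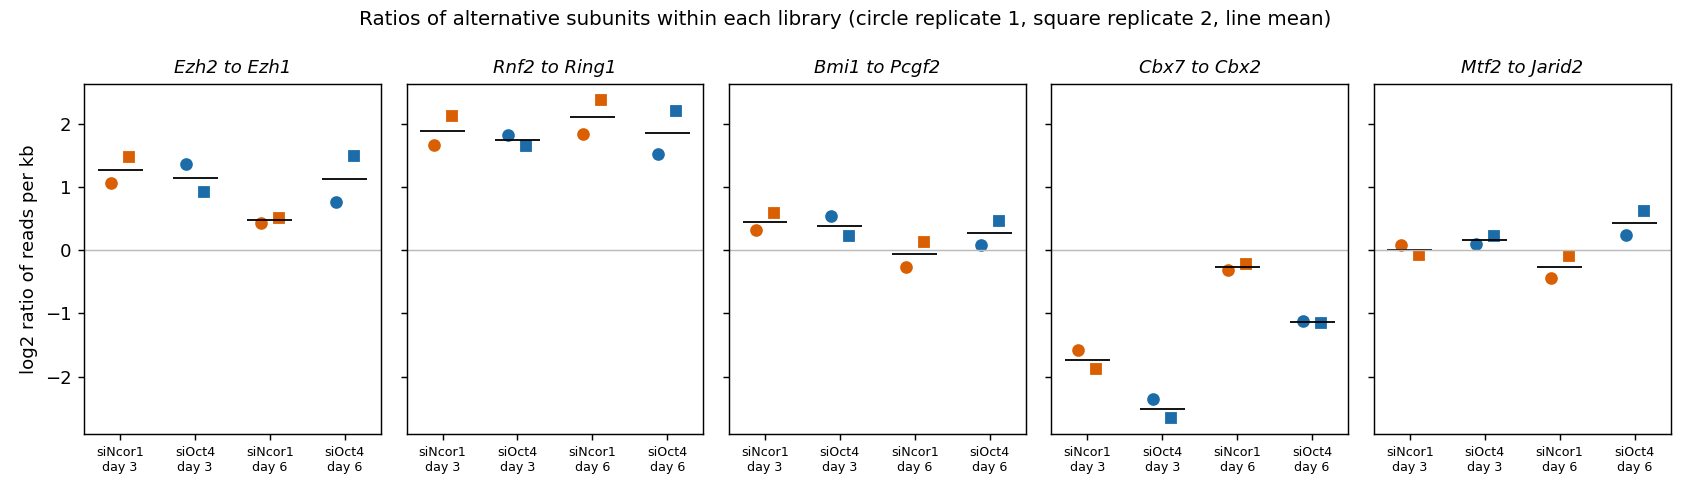
Within-library log2 ratios of alternative subunits per kilobase in the 4 groups, with replicates as points and the mean as a line. *Cbx7* to *Cbx2* stays below 0 in all 8 libraries and is least negative in siNcor1 at day 6 (−0.31 and −0.22).

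The other 35 listed Polycomb subunits, of which 34 were tested (*Ezhip* is not in the table), were called about as often as the whole table between the days. From day 3 to day 6, 4 rose and 8 fell in siNcor1, beside 34.8% of all tested genes called, and 4 rose and 13 fell in siOct4, beside 52.7%. At day 6 the libraries labelled siOct4 had more of 5 and less of 7, beside 12.1% of all tested genes higher and 18.6% lower. At day 3, 0 of the 63 tested genes of these and the lists below passed (limma), with 6 at an unadjusted p under 0.05. Among 7 other PRC2 genes, *Epop*, which encodes an elongin-binding PRC2 partner, was at 6.94 and 6.95 in siNcor1 at day 3, 6.31 and 6.34 in siOct4 at day 3, 7.12 and 6.66 in siNcor1 at day 6, and 8.10 and 7.64 in siOct4 at day 6 (log2-cpm). *Epop* rose by 1.54 ± 0.17 (SE, adjusted p = 2.26e-05, limma) in siOct4, and its interaction was 1.60 ± 0.24 (SE, adjusted p = 0.00153, limma). *Phf19*, a paralogue of *Mtf2*, fell by 1.58 ± 0.27 (SE, adjusted p = 0.000471, limma) in siOct4, down to 18 and 21 reads. *Phf1*, the third Polycomb-like gene, rose by 0.71 ± 0.20 (SE, adjusted p = 0.0185, limma) in siNcor1, and it overlaps *Cuta* on the other strand.

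Of the 10 other canonical PRC1 genes, 1 was higher and 4 were lower in siOct4 at day 6, beside 12.1% of all tested genes higher and 18.6% lower. *Cbx2* was 0.78 ± 0.19 higher (SE, adjusted p = 0.00981, limma). *Scmh1*, a sex comb on midleg homologue, was lower (−0.76 ± 0.14, SE, adjusted p = 0.00262, limma). *Scmh1* and the Polyhomeotic gene *Phc3* had interactions of −1.18 ± 0.20 and −0.72 ± 0.18 (SE, adjusted p = 0.00239 and 0.0175, limma). In the 17 variant PRC1 genes, 1 rose and 7 fell from day 3 to day 6 in siNcor1, and 2 rose and 6 fell in siOct4. Of all tested genes 13.8% rose and 20.9% fell in siNcor1, and 22.2% rose and 30.5% fell in siOct4. *Pcgf6*, the ring finger subunit of the variant complex that contains MGA and E2F6, had an interaction of 0.91 ± 0.21 (SE, adjusted p = 0.0118, limma).

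The 10 opposing genes, which encode H2A deubiquitinase subunits and H3K27 demethylases, had 4 that fell and 0 that rose from day 3 to day 6 under each pool, beside 20.9% of all tested genes lower in siNcor1 and 30.5% in siOct4. *Asxl3* fell the most in siNcor1 (−1.25 ± 0.18, SE, adjusted p = 0.000478, limma). Of 15 classical Polycomb target genes, 10 were in the table and 5 passed the filter. *Cdkn2a*, the *Ink4a/Arf* gene, was at 5.80 and 5.64 in siNcor1 at day 3, 5.40 and 5.25 in siOct4 at day 3, 6.73 and 6.72 in siNcor1 at day 6, and 6.57 and 6.47 in siOct4 at day 6 (log2-cpm). *Cdkn2a* rose under both pools, by 1.00 ± 0.12 in siNcor1 and 1.20 ± 0.12 in siOct4 (SE, adjusted p = 0.000139 and 1.17e-05, limma). Its neighbour *Cdkn2b*, which encodes a related cell-cycle inhibitor, rose by 0.84 ± 0.14 in siNcor1 (SE, adjusted p = 0.00121, limma) and had an interaction of −0.86 ± 0.20 (SE, adjusted p = 0.0133, limma). *Wt1*, a developmental transcription factor with 11 to 102 reads per library, fell by 1.86 ± 0.30 in siNcor1 and by 1.27 ± 0.30 in siOct4 (SE, adjusted p = 0.000831 and 0.00361, limma) and was 0.92 ± 0.30 higher in siOct4 at day 6 (SE, adjusted p = 0.0363, limma).

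From day 3 to day 6 in siNcor1, the members *Ezh2*, *Suz12* and *Bmi1* fell and *Cbx7* and *Jarid2* rose. Of the 14 proliferation genes, 8 fell, 0 rose and 6 did not pass in the same comparison, beside 20.9% of all tested genes lower. *Mki67*, the marker of cycling cells, fell by 1.39 ± 0.14 (SE, adjusted p = 4.44e-05, limma). In the libraries labelled siOct4, 3 rose and 3 fell, beside 22.2% of all tested genes higher and 30.5% lower. There *Mki67* fell by 1.24 ± 0.14 (SE, adjusted p = 2.12e-05, limma) and *Pcna*, the replication clamp, rose by 1.10 ± 0.14 (SE, adjusted p = 7.48e-05, limma). At day 6, 5 of the proliferation genes were higher and 0 lower in siOct4 than in siNcor1, beside 12.1% of all tested genes higher and 18.6% lower. The interaction of *Pcna* was 1.02 ± 0.20 (SE, adjusted p = 0.00573, limma). The part of the proliferation genes in the values of *Ezh2* and *Eed* was not tested.

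**Figure D5:**
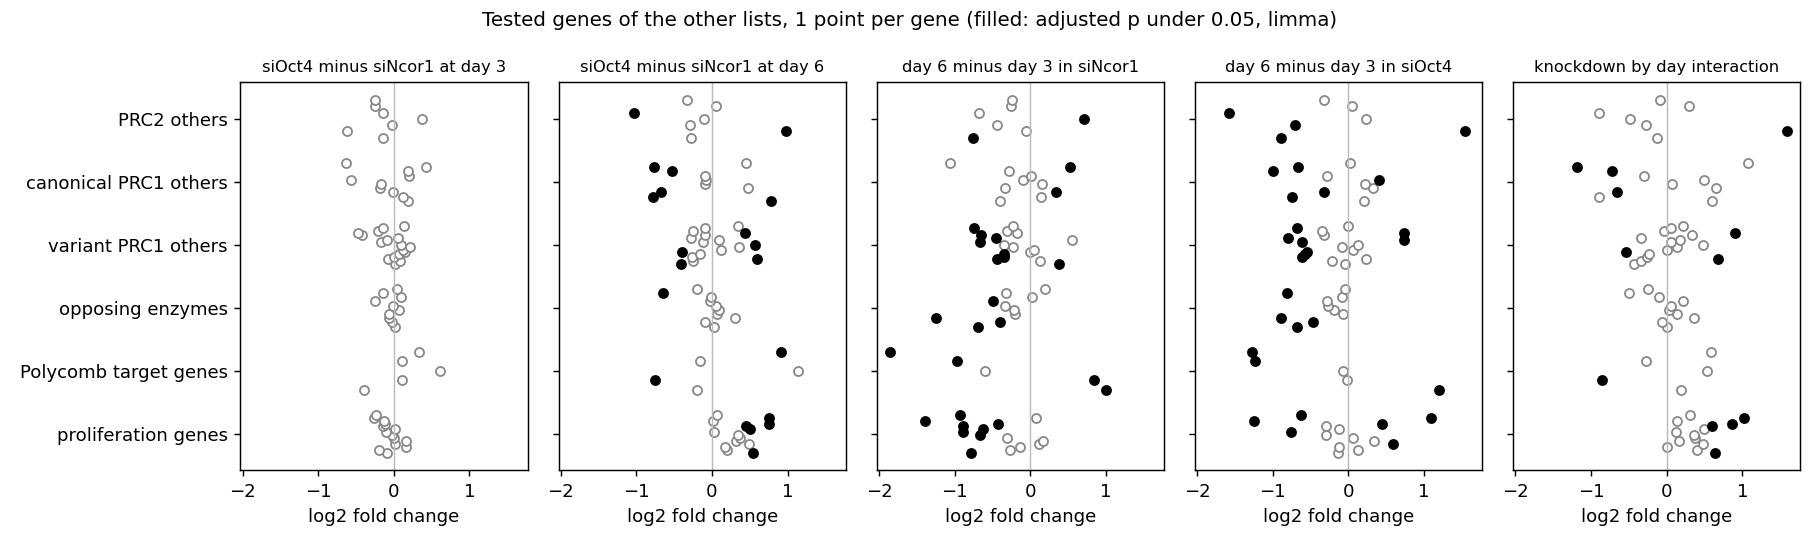
Log2 fold change of each tested gene of the lists of other Polycomb subunits, opposing enzymes, target genes and proliferation genes in the 5 comparisons (filled: adjusted p under 0.05, limma). No gene of these lists passed at day 3, and in siNcor1 8 of 14 proliferation genes fell from day 3 to day 6, beside 20.9% of all tested genes.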

How the data were processed

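Gene expression was measured by total RNA sequencing in 8 libraries. The authors aligned reads to mm10 with STAR 2.5.2b and deposited log2-cpm values made with edgeR 3.20.9. The gene counting tool is not given in the sources used here. On the linear scale, after the lowest value of each library was subtracted, 100% of values were whole multiples of 1 read within 0.1 read, and 3 reads corresponded to 0.174 to 0.380 CPM.

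Groups followed the labels. Genes averaging 1 CPM or more were tested on the deposited log2 values with limma 3.58.1 in R 4.3.3 (lmFit, eBayes with trend, 4 groups together), with Benjamini-Hochberg adjustment over all 13866 tested genes at 0.05. Fold changes carry the prior count in the deposited values, 0.136 CPM, which shrinks changes of low genes. Because the values are log2 and not counts, the limma test of the design applied. Each p-value sets a difference against a spread between replicates. That spread was estimated over the 4 groups, with 2 replicates per group, and moderated over the tested genes. Between replicates the chi-square divided by its degrees of freedom was 8.44 to 18.7, more than counting alone gives, so no library was merged. Of 18990 genes, 18969 matched GENCODE M21.

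The members and the lists were chosen with earlier results of these data known. Named were all members, *Ncor1*, *Pou5f1*, *Gm26917*, and from the pathway lists the up to 3 called genes with the largest rise and the largest fall per comparison. One result that this rule would name is not reported here. Genes overlapping a member were named after their values were seen. Alternatives covered the variance trend, scaling, filter, prior count, voom on recovered reads, replicate block, groups fitted and each library left out. The scripts were tested on simulated data. Figures were drawn with matplotlib 3.10.9.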

Additional observations from a re-analysis of the deposited data

Results flagged for a closer look

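The difference between the pools changed from day 3 to day 6, by the interaction test of limma (adjusted p under 0.05 over all tested genes), for *Ncor1*, *Pou5f1* and 6 pathway genes. The 6 were named because they passed, as the up to 3 largest in each direction, so their number is not a result. Of all tested genes 20.7% passed. The interaction (log2 difference of siOct4 minus siNcor1 at day 6 less that at day 3) was 1.85 for *Pou5f1*, 1.60 for *Epop*, 1.02 for *Pcna* and 0.91 for *Pcgf6*. It was −1.18 for *Scmh1*, −0.86 for *Cdkn2b*, −0.79 for *Ncor1* and −0.72 for *Phc3*. *Apobec3*, which overlaps *Cbx7*, had 0.67. All 8 fibroblast markers passed too, each with a value below 0. Of the 6 epithelial markers 5 passed, 3 above 0 (*Epcam*, *Cdh1*, *Krt8*) and 2 below (*Krt18*, *Cldn4*). None of the 10 Polycomb members passed. Groups of 2 libraries are too small to test a single library as an outlier.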

How the results depend on the processing

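The number of called members was recomputed under 11 other processing settings (10 for the interaction) and 8 fits that each left out 1 library, where a lone remaining replicate is assumed to vary like the other groups. At day 3 it was 0 in all. At day 6 it was 2, and 1 without the variance trend and with only the compared groups fitted (*Eed* lost). From day 3 to day 6 it was 5 in siNcor1 and 3 without the trend (*Jarid2* and *Bmi1* lost). In siOct4 it was 5, then 2 without the trend and 2 with only the compared groups (*Ezh2*, *Ezh1* and *Rnf2* lost), and 3 with median centring and 3 with quantile normalisation (*Ezh2* and *Ezh1* lost). Leaving out single libraries gave 1 to 3 at day 6, 2 to 6 between days in siNcor1, 1 to 5 in siOct4 and 0 to 3 in the interaction. The cause was not tested. Leaving *Gm26917* out of the totals shifted the median of all tested genes by 0.13 in the siOct4 day comparison.

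Of the members' single values, 854 kept direction and side of the threshold, 53 lost the call, 12 gained it and 21, all of uncalled differences, changed sign. By processing, *Ezh1* at day 3 turned to 0.0097 with median centring, and *Eed* between days in siNcor1 to 0.022 (median centring), 0.11 (quantile) and 0.057 (without *Gm26917*). The others came from single libraries left out. Their lowest and highest values were −0.20 and 0.20 (*Ezh1*), −0.25 and 0.066 (*Ring1*) and −0.040 and 0.012 (*Eed*) at day 3. At day 6 they were −0.24 and 0.048 (*Suz12*), −0.13 and 0.26 (*Mtf2*), −0.38 and 0.053 (*Rnf2*), −0.090 and 0.26 (*Ring1*) and −0.39 and 0.21 (*Cbx7*). Between days in siNcor1 they were −0.11 and 0.068 (*Eed*), −0.0038 and 0.26 (*Mtf2*) and −0.059 and 0.29 (*Ring1*), and in the interaction −0.14 and 0.30 (*Rnf2*).

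The replicate block, with the replicate number as a factor, gave 0, 2, 5, 5 and 0 called members, with no call changed. Over all tested genes it moved the calls from 148 to 222 at day 3 and from 4251 to 4698 at day 6. Between days the calls went from 4819 to 5218 in siNcor1 and from 7312 to 7570 in siOct4. In the interaction they went from 2867 to 3395. Same-numbered replicates of different groups correlated by −0.040 to 0.28 in their deviations from the group means. The main fit did not treat the numbers as pairs, and whether they are pairs was not tested.

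Precision rests on 2 libraries per group. Counting error is largest for *Cbx7*, with 43 reads in 1 library.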
